A study of Mus musculus with 19 samples.

Results

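Potassium channel genes were taken as all probes of the array whose platform gene symbol began with Kcn, with 1 gene left out by rule. This gave 119 probes for 80 genes of 16593 genes on the array, and 1 value per gene was taken from the probe with the highest mean intensity. Symbols of all 80 genes were found in the RefSeq mouse gene table, which checks their names and not their function. Besides channel subunits the set holds 15 genes of auxiliary subunits, and Kcnrg, classed as other. Expression was measured in prefrontal cortex of female mice at 20 months of age, on 19 bead arrays. In the groups below n counts arrays, since whether 3xTgAD replicates 2 and 5 are 1 mouse is not stated. The wild type mice (n = 5) carried neither change. Polb+/- mice (n = 4) were heterozygous for Polb, the gene of DNA polymerase beta, which fills gaps in base excision repair. 3xTgAD mice (n = 6) carried the APPswe, PS1M146V and tauP301L alleles, a model of Alzheimer disease whose human APP and tau transgenes are driven by the neuronal Thy1 promoter. 3xTgAD/Polb+/- mice (n = 4) came from a cross of both lines. The strain label was C57BL/6 in every group. The labels give 1 replicate per array and do not say whether RNA was pooled, so p-values measure the spread between arrays.

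Potassium channels let potassium leave the cell and so set the resting potential, end the action potential and pace repetitive firing. Voltage-gated alpha subunits assemble as tetramers, silent subunits join them without forming channels of their own, and auxiliary subunits (beta, KChIP, KCNE and KCNMB proteins) change their gating or traffic. Inward rectifiers hold cells near rest or couple them to G proteins and ATP, 2-pore-domain channels carry the leak current, and calcium- or sodium-activated channels answer to the ions that enter during firing.

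Polb had log2 intensities of 7.55 to 7.97 in wild type. Polb+/- arrays gave 6.95 to 7.26, 3xTgAD/Polb+/- arrays 6.53 to 7.21 and 3xTgAD arrays 6.63 to 7.79. Polb+/- and wild type did not overlap (difference -0.63 ± 0.20 SE, limma adjusted p = 1.0). On 3xTgAD replicates 4 and 6 Polb lay at 6.89 and 6.63, below the Polb+/- range. The same 2 arrays had a mean of 10 striatal projection neuron markers of 11.005 and 10.65, against 9.22 to 9.29 on the other 3xTgAD arrays. That marker mean was 8.92 to 10.84 on wild type, 10.63 to 11.28 on Polb+/- and 9.17 to 9.81 on 3xTgAD/Polb+/- arrays. In tissue RNA, fewer cells of a type and less RNA per cell cannot be told apart. The source labels wrote the age as "20- month" for 11 arrays and as "20 month" for the other 8, and both forms occur in all 4 genotypes. Between 13876 and 14396 probes were detected on the first and 13205 to 13562 on the second. The arrays labelled 3xTgAD replicates 2 and 5 share a code in the column headings, and whether they are 1 mouse is not stated. Excitatory cortical neuron markers averaged 9.30 to 9.82 on every array.

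Of the 80 genes, 45 were detected on all 19 arrays at a detection p under 0.05 and 19 on none. Genes detected on at least 4 arrays were tested, which left 56. The other 24 comprised the 19 never detected and 5 detected on 1 or 2 arrays. By class, 15 of 23 voltage-gated alpha subunits, 5 of 9 silent subunits, 5 of 7 calcium- and sodium-activated channels, 8 of 12 inward rectifiers, 10 of 13 2-pore-domain channels and 12 of 15 auxiliary subunits were tested. All members on the array were tested in the Kcnab (3 of 3), Kcnip (4 of 4) and Kcnc (2 of 2) subfamilies. In Kcnd, Kcng and Kcnn they were 1 of 3, 1 of 3 and 2 of 4. Of the genes detected nowhere, Kcna4, Kcna7, Kcnd3, Kcnh4 and Kcnh6 are voltage-gated, and Kcnj1, Kcnj5, Kcnj14 and Kcnj15 are inward rectifiers. The others were Kcng1, Kcng3, Kcns3 and Kcnv2 of the silent subunits, Kcnk7, Kcnk15 and Kcnk18 of the leak channels, Kcnn3 and Kcnn4 of the calcium-activated channels and Kcne3 of the auxiliary subunits. Kcnd1, Kcne2, Kcnh7 and Kcnmb1 were detected on 1 array each and Kcnq1 on 2. A probe below background gives only an upper bound on its gene.

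**Figure D1:**
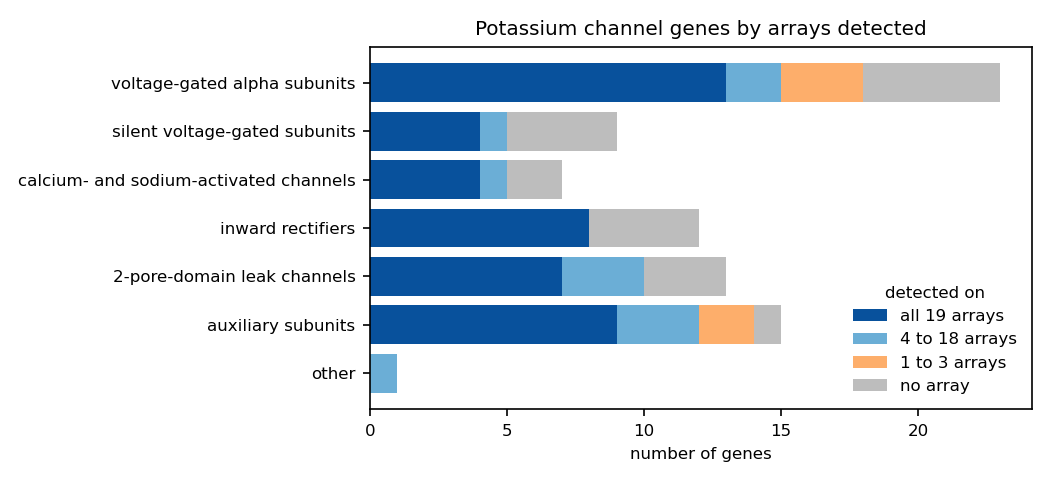
Number of potassium channel genes (x axis) in each class (y axis), split by the number of the 19 arrays on which the probe was detected (colours). Dark blue bars add up to 45 genes detected on every array, and grey bars to 19 genes detected on none.

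Few of these genes differed by genotype beyond the spread between arrays. In each of the 5 comparisons between genotypes, and in their interaction, 0 of 56 members passed an adjusted p of 0.05 (limma, Benjamini-Hochberg over 11072 genes). Over all genes tested the shares called were 0.00903% for 3xTgAD against wild type, 0% for Polb+/- against wild type and 0.0181% for 3xTgAD/Polb+/- against wild type. They were 0% for 3xTgAD/Polb+/- against 3xTgAD, 0.0903% for 3xTgAD/Polb+/- against Polb+/- and 0% for the interaction. At an unadjusted p under 0.05 the members numbered 2, 3, 5, 4, 9 and 3 in that order, or 3.57%, 5.36%, 8.93%, 7.14%, 16.1% and 5.36%. The shares over all genes were 5.65%, 3.36%, 13.2%, 8.82%, 12.1% and 3.22%. A moderated F-test across the 4 genotypes called 1 of 56 members, Kcna5 (adjusted p = 0.0292), against 0.154% of all genes. Kcna5 passed the detection filter only through the Polb+/- arrays, where it was high, so that call is not support. At an unadjusted p under 0.05 the F-test picked 8 members (14.3%), against 11.5% of all genes. Members were thus picked about as often as other genes.

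The medians over the members stayed near 0. Against wild type the median log2 difference was -0.030 in 3xTgAD (all genes -0.0060), -0.062 in Polb+/- (all genes -0.0022) and 0.0033 in 3xTgAD/Polb+/- (all genes 0.020). It was 0.026 for 3xTgAD/Polb+/- against 3xTgAD (all genes 0.0091) and 0.079 against Polb+/- (all genes 0.026). In Polb+/- 37 of 56 members lay below wild type and 19 above, while 50.7% of all genes lay below. The voltage-gated alpha subunits lay lower in 12 of 15 cases there, with a median of -0.10, and the inward rectifiers in 4 of 8. The interaction, which is the 3xTgAD/Polb+/- minus 3xTgAD difference less the Polb+/- minus wild type difference, had a median of 0.095 over members and 0.016 over all genes. These medians were not tested, and the comparisons share control arrays.

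The precision limits what these arrays could show. The median half-width of the members' 95% intervals was 0.32 to 0.38 log2 units in the comparisons between genotypes. The interval stayed within 1.5-fold in either direction for 46 of 56 members in 3xTgAD against wild type, for 35 in Polb+/- and for 37 in 3xTgAD/Polb+/-. For 3xTgAD/Polb+/- it did so for 39 members against 3xTgAD and for 28 against Polb+/-. The widest intervals were those of Kcna1.

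**Figure D2:**
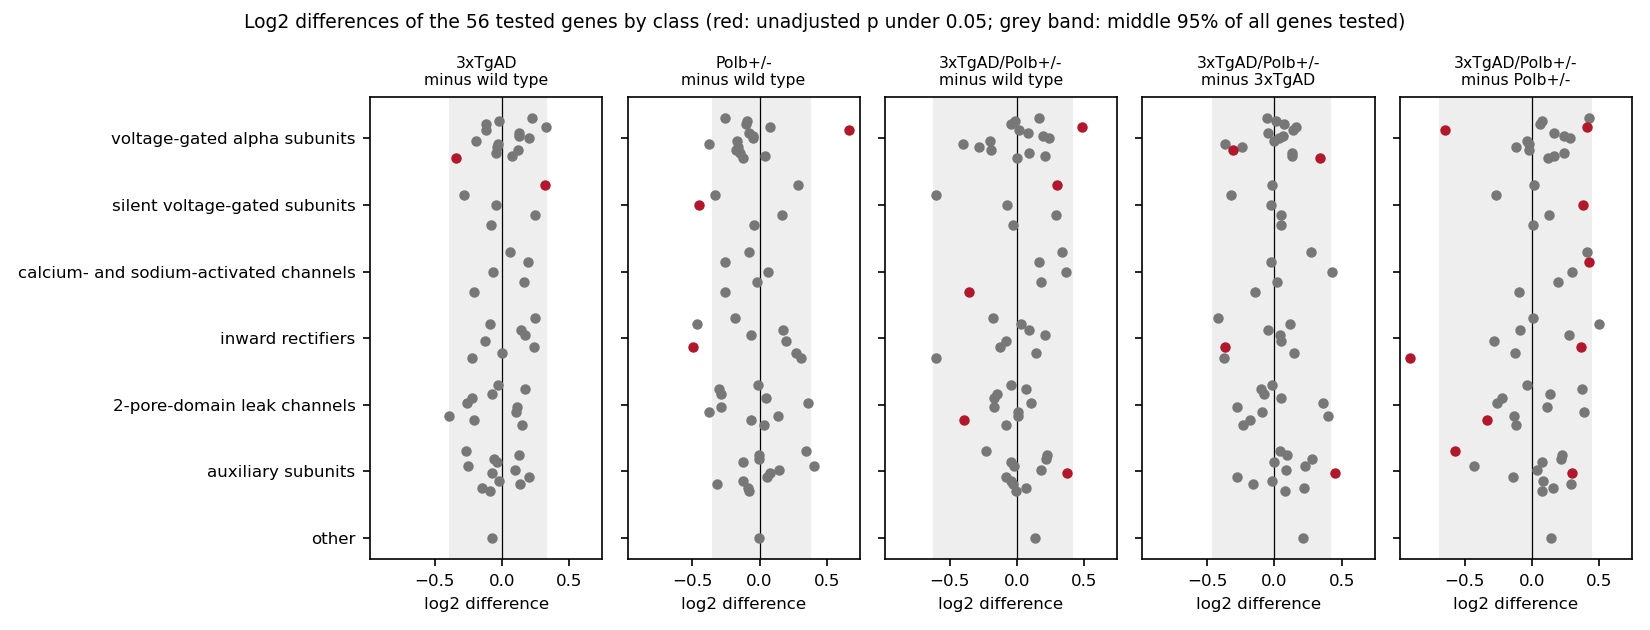
Log2 difference of each of the 56 tested genes (points) by class in 5 comparisons between genotypes; red points have an unadjusted p under 0.05, and the grey band holds the middle 95% of all 11072 genes. Most points lie inside the band, and the point far right under Polb+/- minus wild type is Kcna5, at 0.67.

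Between Polb+/- and wild type 4 of 56 members (7.14%) did not overlap, against 1.55% of all genes. Kcna5, 1 of the 4, was detected on the Polb+/- arrays only and passed the detection filter through them, so it had to differ and the share of members is not support. Kcna5 and Kcnj8 were higher in Polb+/- (3.57%, all genes 0.75%), and Kcns1 and Kcnj6 were lower (3.57%, all genes 0.804%). The promoters of the 3 with the smallest p in that comparison are shown as the sequences upstream of these genes, and no measurement here bears on them directly. Each is the 250 bases upstream of the start listed in RefSeq (build GRCm38.p6), 5′ to 3′ on the gene's strand, and capitals mark GGGCGG or TGACG on either strand. They lie at chr6:126535556-126535805 (Kcna5, minus strand), chr2:164171114-164171363 (Kcns1, minus strand) and chr16:94997697-94997946 (Kcnj6, minus strand, the first of 2 listed starts).
Kcna5: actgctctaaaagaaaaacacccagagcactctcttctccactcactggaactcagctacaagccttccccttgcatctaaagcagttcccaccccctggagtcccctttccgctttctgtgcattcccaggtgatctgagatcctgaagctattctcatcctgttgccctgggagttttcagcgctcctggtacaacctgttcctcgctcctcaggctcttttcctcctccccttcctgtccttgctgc
Kcns1: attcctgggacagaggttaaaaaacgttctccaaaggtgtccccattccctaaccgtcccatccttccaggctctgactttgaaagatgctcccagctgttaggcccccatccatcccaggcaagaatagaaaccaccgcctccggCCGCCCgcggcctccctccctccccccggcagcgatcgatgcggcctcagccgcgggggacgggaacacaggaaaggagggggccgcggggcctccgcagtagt
Kcnj6: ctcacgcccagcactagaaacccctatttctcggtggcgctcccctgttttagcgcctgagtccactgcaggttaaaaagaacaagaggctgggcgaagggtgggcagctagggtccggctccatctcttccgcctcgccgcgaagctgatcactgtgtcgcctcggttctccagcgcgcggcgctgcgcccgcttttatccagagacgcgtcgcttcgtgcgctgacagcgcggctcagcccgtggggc
The Kcna5 window held 3 CpG dinucleotides at a GC share of 53.2%, the Kcns1 window 17 at 63.2% and the Kcnj6 window 26 at 64%. For members only the first listed start of each gene was counted (62), while the 32851 promoters of all genes include every listed start. The motif shares of members and of all promoters are thus not of like units. GGGCGG, the GC box, stood on either strand in 31 of the 62 member promoters (50%), against 32.7% of all 32851 of the same length. TATAAA stood in 1 (1.61%), against 12.4%. TGACG, the core of the cAMP response element, stood in 21% of member promoters and 17.8% of all, and CANNTG, the E-box, in 69.4% and 66.2%. Of these motifs, Kcna5 held CANNTG, Kcns1 held GGGCGG and CANNTG, and Kcnj6 held none in its window.

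The voltage-gated alpha subunits include the F-test's only call. Kcna5 encodes a delayed rectifier best known from heart and vascular muscle. It lay at 4.68, 4.97, 4.65, 4.83 and 4.84 on wild type arrays and at 5.47, 5.17, 5.42 and 5.78 on Polb+/-. On 3xTgAD it lay at 4.51 to 5.06 (median 4.59), and on 3xTgAD/Polb+/- at 4.77, 4.73, 5.01 and 4.74. All 4 Polb+/- arrays were above every other array. The probe was detected on those 4 arrays and on no other, so Kcna5 entered the test only through the group in which it was high and had to differ there. Its other groups were not well above background, and Polb+/- was at least 1.16-fold higher than wild type and at least 1.11-fold higher than 3xTgAD/Polb+/-. The measured differences were 0.67 ± 0.13 SE (limma adjusted p = 0.198) and -0.65 ± 0.14 SE (3xTgAD/Polb+/- minus Polb+/-, adjusted p = 0.0685). The F-test's adjusted p rose to 0.0582 without the detection filter, to 0.0660 without background correction and to 0.378 with the striatal marker mean in the fit. It was 0.0176 with the age spelling as a block, 0.0120 without both 3xTgAD arrays with low Polb and 0.000861 with array weights, and 7 of 14 alternative fits kept the call. Left out 1 at a time, 10 of the 19 arrays ended that call, namely wild type replicates 3 and 5, Polb+/- replicates 1, 3 and 4, 3xTgAD replicates 1, 2, 3 and 5 and 3xTgAD/Polb+/- replicate 4 (adjusted p 0.0535 to 0.125).

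Kcna3 encodes a channel known from lymphocytes and microglia. It lay at 5.74, 5.75, 5.67, 5.73 and 6.08 on wild type and at 5.85, 5.85, 6.05 and 5.73 on Polb+/- arrays. It was at 5.67 to 6.68 (median 6.08) on 3xTgAD and at 6.33, 6.52, 5.73 and 6.52 on 3xTgAD/Polb+/-. In the last group 3 arrays were above all wild type arrays, and replicate 3, at 5.73, was within the wild type range. The gap to the wild type mean was 0.48 ± 0.18 SE (limma adjusted p = 0.270). Without 3xTgAD/Polb+/- replicate 3 it was 0.67 (limma adjusted p = 0.0387). Of the 19 fits that left out 1 array, only that 1 called Kcna3 in this comparison. It called 2 members there (3.57%), against 2.93% of all genes, so the call is not particular to Kcna3. Microglia markers averaged 8.28 to 9.28 on wild type and 8.19 to 8.81 on 3xTgAD/Polb+/- arrays, and their part in the Kcna3 values was not tested.

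Kcnh3, an ether-a-go-go-like subunit of forebrain neurons, lay at 9.61 to 10.03 on 3xTgAD arrays and at 9.63, 9.25, 9.61 and 9.72 on 3xTgAD/Polb+/-. The difference was -0.31 ± 0.11 SE (limma adjusted p = 0.470), and the groups overlapped. All 4 tested Kcnh genes lay below wild type in Polb+/-, by 0.15 to 0.38 log2 units at adjusted p-values of 1.0. Kcnq5, a subunit of the M-current that dampens repetitive firing, had a wild type mean of 7.12 ± 0.17 (SD, n = 5) and a 3xTgAD mean of 6.78 ± 0.27 (SD, n = 6). It was at 7.12 ± 0.30 (SD, n = 4) in 3xTgAD/Polb+/-, and neither difference from 3xTgAD passed. 3xTgAD minus wild type was -0.34 ± 0.15 SE (limma adjusted p = 0.837). 3xTgAD/Polb+/- minus 3xTgAD was 0.34 ± 0.16 SE (limma adjusted p = 0.552). The 3xTgAD values were 6.59, 6.78 and 6.34 on "20 month" arrays and 6.94 to 7.05 on "20- month" arrays. With genotype in the fit, Kcnq5 differed between these spellings ("20- month" minus "20 month" 0.37 ± 0.08 SE, limma adjusted p = 0.00177). Kcna2, an axonal channel, had means of 10.21, 10.10, 10.09 and 10.16 in wild type, Polb+/-, 3xTgAD and 3xTgAD/Polb+/-. Those of Kcnc4, of the fast-spiking Kv3 type, were 11.72, 11.67, 11.92 and 11.95. Kcnd2, the dendritic A-type channel, had 9.43, 9.27, 9.24 and 9.23.

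Among the silent subunits, Kcns1, which joins Kv2 channels, lay at 7.24, 7.32, 7.01, 7.03 and 7.03 on wild type arrays. On Polb+/- it lay at 6.75, 6.62, 6.87 and 6.44, below every wild type array. It was at 6.94 to 7.21 (median 7.06) on 3xTgAD and at 7.23, 6.90, 6.75 and 7.32 on 3xTgAD/Polb+/- arrays. Polb+/- minus wild type was -0.45 ± 0.12 SE (limma adjusted p = 0.831). 3xTgAD/Polb+/- minus Polb+/- was 0.38 ± 0.13 SE (limma adjusted p = 0.243). Kcnf1, another Kv2 partner, had a wild type mean of 10.03 ± 0.21 (SD, n = 5), and means of 10.31 ± 0.16, 10.34 ± 0.20 and 10.32 ± 0.23 in Polb+/-, 3xTgAD and 3xTgAD/Polb+/-. The 3xTgAD difference of 0.32 ± 0.12 SE had the smallest p of all members in that comparison (limma adjusted p = 0.794). Kcnv1, a further silent subunit, had means of 9.52, 9.48, 9.43 and 9.49.

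Of the inward rectifiers, Kcnj6 encodes a G-protein-gated subunit that neurotransmitter receptors open. It lay at 6.69, 7.10, 6.57, 6.59 and 6.95 on wild type and at 6.25, 6.10, 6.52 and 6.27 on Polb+/- arrays. It was at 6.68 to 7.34 (median 7.03) on 3xTgAD and at 6.65, 6.75, 6.55 and 6.66 on 3xTgAD/Polb+/-. The Polb+/- arrays were below all others. Polb+/- minus wild type was -0.49 ± 0.15 SE (limma adjusted p = 1.0), and the F-test's adjusted p was 0.122. Without both 3xTgAD arrays with low Polb the F-test passed (limma adjusted p = 0.0268). Those 2 arrays held the lowest 3xTgAD values, 6.68 and 6.77, and both were labelled "20- month". That F-test called 2 of 56 members (3.57%), against 0.695% of all genes, or 0.154% over all arrays. The other call was Kcna5, which passed the detection filter only through Polb+/- arrays, so that share is not support. A second, dimmer Kcnj6 probe, detected on 13 arrays, gave -0.19 ± 0.16 SE for Polb+/- minus wild type. Kcnj9, a partner of Kcnj6 in these channels, ranged from 6.85 to 8.39 in wild type and from 6.81 to 8.38 in Polb+/-. Its 3xTgAD/Polb+/- values of 7.22, 6.93, 6.65 and 6.70 overlapped both groups (3xTgAD/Polb+/- minus Polb+/- -0.90 ± 0.35 SE, limma adjusted p = 0.311). Kcnj8, the pore of a KATP channel known from pericytes and vascular muscle, lay at 5.97 to 6.09 on wild type and at 6.11, 6.61, 6.25 and 6.30 on Polb+/- arrays. Endothelial and pericyte markers averaged 7.39 to 7.92 and 7.47 to 7.89 on the same arrays. The Kcnj8 means were 6.05 ± 0.05 (SD, n = 5) and 6.32 ± 0.21 (SD, n = 4). Kcnj16, which pairs with a glial rectifier subunit, lay at 5.59 on Polb+/- replicate 4 and at 6.74 to 7.53 on the other 18 arrays. Kcnj4, a strong rectifier, had means of 10.25, 10.45, 10.13 and 10.17.

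**Figure D3:**
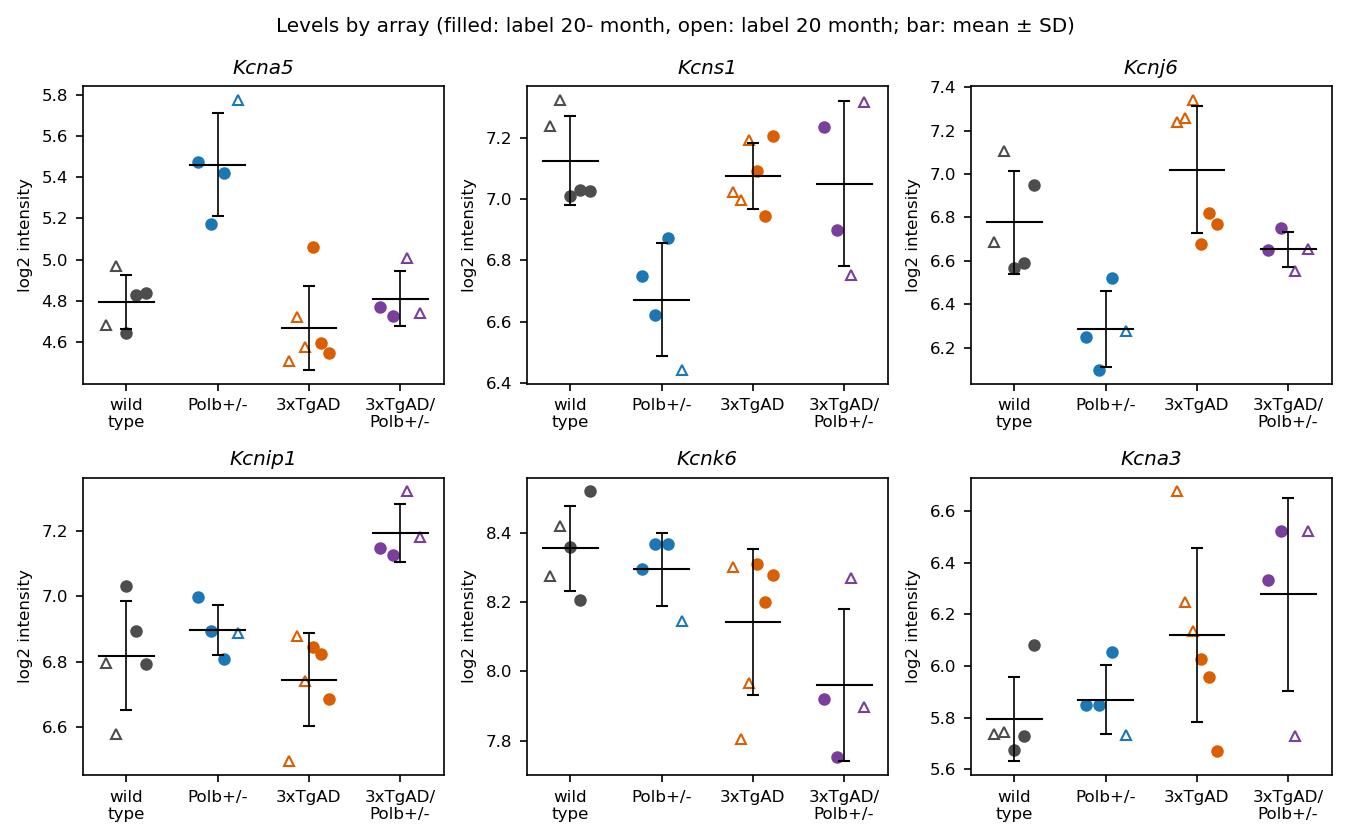
Log2 intensity (y axis) of 6 potassium channel genes on each of the 19 arrays by genotype (x axis); points are arrays, horizontal lines means and error bars the SD, and filled or open symbols give the spelling of the age label. Polb+/- arrays lie above all others for Kcna5 and below all others for Kcnj6, and 3xTgAD/Polb+/- arrays lie above all others for Kcnip1.

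Among the 2-pore-domain channels Kcnk6, of the TWIK type, lay at 8.28, 8.42, 8.36, 8.21 and 8.52 on wild type and at 8.30, 8.37, 8.37 and 8.15 on Polb+/- arrays. On 3xTgAD it ranged from 7.80 to 8.31 (median 8.24), and on 3xTgAD/Polb+/- it was at 7.92, 7.75, 8.27 and 7.90. In that group 3 arrays lay below all wild type and Polb+/- arrays, and replicate 3, at 8.27, lay within both ranges. The gap to the wild type mean was -0.40 ± 0.12 SE (limma adjusted p = 0.231). A second Kcnk6 probe gave -0.11 ± 0.21 SE. Without 3xTgAD/Polb+/- replicate 3 the gap of the chosen probe was -0.50 (limma adjusted p = 0.0378). Of the 19 fits that left out 1 array, only that 1 called Kcnk6 in this comparison. It called 2 members there (3.57%), against 2.93% of all genes. Kcnk4, a mechanosensitive channel, had a wild type mean of 8.23 ± 0.24 (SD, n = 5) and a Polb+/- mean of 7.85 ± 0.37 (SD, n = 4), a difference of -0.38 ± 0.18 SE (limma adjusted p = 1.0). Kcnk1 varied little, with means of 11.50, 11.49, 11.47 and 11.45 and an SD of 0.12 over all 19 arrays.

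Of the calcium- and sodium-activated channels, Kcnn1, a small-conductance channel behind the afterhyperpolarisation, lay at 7.53, 7.63, 7.25 and 7.40 on Polb+/- arrays. On 3xTgAD/Polb+/- it was at 7.75, 7.73, 7.68 and 8.36, above each Polb+/- array. The difference was 0.42 ± 0.18 SE (limma adjusted p = 0.356), and wild type spanned 7.34 to 8.24. Kcnma1, the large-conductance BK channel, had means of 9.82 ± 0.35 (SD, n = 5), 9.74 ± 0.22 (SD, n = 4), 9.88 ± 0.24 (SD, n = 6) and 10.15 ± 0.51 (SD, n = 4). Kcnt1, the sodium-activated Slack channel, had means of 7.73, 7.71, 7.89 and 7.91. Kcnu1, whose channel is known from sperm, was placed in this class by its gene symbol and not by what opens it. It differed by -0.36 ± 0.16 SE between 3xTgAD/Polb+/- and wild type (limma adjusted p = 0.348).

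Among the auxiliary subunits, Kcnip1 encodes a calcium sensor that binds A-type channels and is known from interneurons. It lay at 6.79, 6.58, 7.03, 6.89 and 6.79 on wild type and at 6.997, 6.89, 6.81 and 6.89 on Polb+/- arrays. On 3xTgAD it ranged from 6.50 to 6.88 (median 6.78), and on 3xTgAD/Polb+/- it was at 7.15, 7.12, 7.32 and 7.18. Each 3xTgAD/Polb+/- array was above every other array. The difference was 0.45 ± 0.10 SE from 3xTgAD (limma adjusted p = 0.266), with a 95% interval of 0.24 to 0.66. It was 0.37 ± 0.10 SE from wild type (limma adjusted p = 0.193). From Polb+/- it was 0.30 ± 0.11 SE (limma adjusted p = 0.280). Kcnip1 was the only member without overlap in 3xTgAD/Polb+/- against wild type (1.79%, all genes 2.71%) and against 3xTgAD (1.79%, all genes 0.921%). Against Polb+/- 4 members did not overlap (7.14%, all genes 5.13%), Kcnip1, Kcnj6 and Kcnn1 higher (5.36%, all genes 2.37%) and Kcna5 lower (1.79%, all genes 2.76%). Kcna5 passed the detection filter only through the Polb+/- arrays and had to differ there, so the share with it is not support. In 3xTgAD against wild type there were 0, against 0.912% of all genes. Inhibitory neuron markers averaged 10.81 to 11.07 on wild type and 10.58 to 11.15 on 3xTgAD/Polb+/- arrays, and their part in the Kcnip1 values was not tested.

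Kcne1l, of the KCNE family of small subunits, lay at 6.94 to 7.89 in wild type, at 7.88, 7.55, 7.74 and 7.57 in Polb+/- and at 6.88, 7.01, 7.92 and 7.22 in 3xTgAD/Polb+/-. The wild type and Polb+/- ranges overlapped through wild type replicate 2, at 7.89. The Polb+/- minus wild type difference was 0.41 ± 0.22 SE (limma adjusted p = 1.0). Kcnip3, which encodes the presenilin-binding protein calsenilin, had means of 9.98, 9.85, 9.95 and 9.93. Kcnab2, a cytoplasmic beta subunit, had a wild type mean of 13.02 ± 0.09 (SD, n = 5) and, in 3xTgAD/Polb+/-, 13.24 ± 0.28 (SD, n = 4), a difference of 0.22 ± 0.12 SE (limma adjusted p = 0.429). Kcnmb4, the BK subunit of neurons, had means of 10.58, 10.49, 10.49 and 10.57. Kcnrg, whose protein hinders channel assembly, had 5.46, 5.45, 5.38 and 5.59.

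None of the members not yet described passed an adjusted p of 0.05 over all arrays (limma). Kcns2, a silent partner of Kv2 channels, had means of 7.89, 8.06, 8.14 and 8.19 in wild type, Polb+/-, 3xTgAD and 3xTgAD/Polb+/- (3xTgAD/Polb+/- minus wild type 0.29 ± 0.14 SE, limma adjusted p = 0.381). Kcng4, also a silent subunit, had means of 7.13, 6.79, 6.84 and 6.52. Kcnh1, the ether-a-go-go channel itself, had means of 10.63, 10.25, 10.60 and 10.23, and its F-test adjusted p was 0.651. Kcnip2 and Kcnip4 bind A-type channels as Kcnip1 does. Their 3xTgAD/Polb+/- minus 3xTgAD difference was -0.28 ± 0.16 SE for Kcnip2 (limma adjusted p = 0.601), and Kcnip4 had a Polb+/- minus wild type difference of -0.32 ± 0.17 SE (limma adjusted p = 1.0). Kcnn2, a small-conductance calcium-activated channel, was detected on 12 arrays and had means of 5.34, 5.399, 5.27 and 5.70. Kcnmb2, a BK subunit detected on 4 arrays, had means of 5.09, 5.001, 4.94 and 5.16. For the other 12 members, Kcna6, Kcna10, Kcnab3, Kcne1, Kcne4, Kcnh5, Kcnj2, Kcnj3, Kcnk3, Kcnk5, Kcnk9 and Kcnq3, differences between genotypes lay between -0.39 and 0.40 with limma adjusted p-values of 0.518 or more. Both ends of that range were those of Kcnk5, detected on 12 arrays.

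The spelling of the age label went with more of these genes than genotype did. With genotype in the fit, 21 of 56 members (37.5%) differed between the spellings (limma adjusted p under 0.05), against 32.8% of all genes. Of these, 10 were higher (17.9%, all genes 17.5%) and 11 lower (19.6%, all genes 15.3%) on arrays labelled "20- month". Kcna1, the axonal channel of episodic ataxia, lay at 7.20 to 8.30 on the 11 "20- month" arrays and at 8.68 to 9.41 on the 8 others, without overlap (-1.17 ± 0.13 SE, limma adjusted p = 7.57e-06). Kcnd2 differed by -0.53 ± 0.07 SE ("20- month" minus "20 month", limma adjusted p = 4.58e-05), Kcnj12 by -0.79 ± 0.12 SE (limma adjusted p = 1.28e-04) and Kcnk12 by -0.57 ± 0.09 SE (limma adjusted p = 2.53e-04). Kcnk2, a stretch- and lipid-sensitive leak channel, was higher by 0.68 ± 0.11 SE (limma adjusted p = 1.77e-04) and did not overlap either. Kcnma1 was higher by 0.51 ± 0.09 SE (limma adjusted p = 5.95e-04). What the spelling stands for is not stated in the labels.

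**Figure D4:**
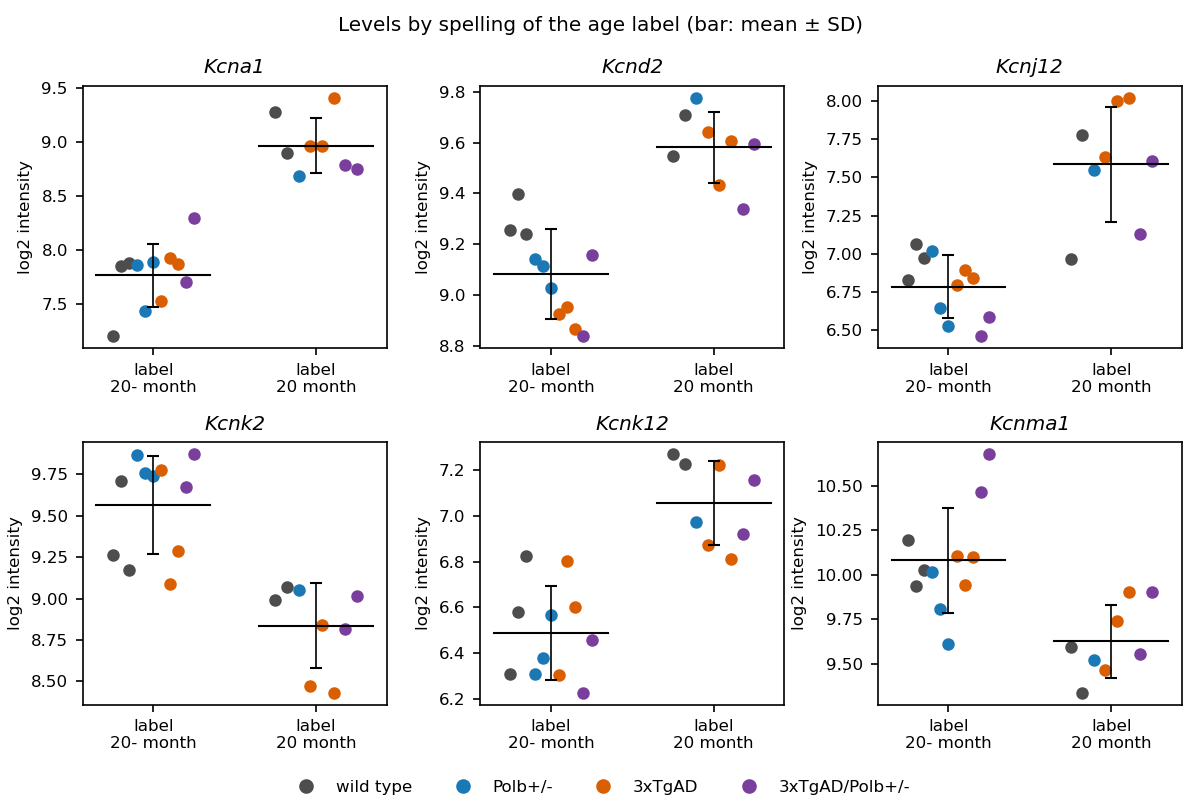
Log2 intensity (y axis) of the 6 members with the smallest adjusted p between the spellings of the age label (x axis), each point 1 array coloured by genotype, with mean and SD. All 11 Kcna1 values labelled "20- month" lie at or below 8.30, and all 8 others at or above 8.68, in every genotype.

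Within the "20- month" arrays (3 wild type, 3 Polb+/-, 3 3xTgAD and 2 3xTgAD/Polb+/-) more was called. In 3xTgAD against wild type 0 members passed (all genes 0.434%). In 3xTgAD/Polb+/- against wild type 8 of 56 members passed (14.3%), against 14.1% of all genes. Kcna3, Kcnab2, Kcnc1, Kcnk10 and Kcnma1 rose, and Kcnh2, Kcnk6 and Kcnu1 fell. Probes of Kcnh2 and Kcnc1 disagreed in sign for this comparison over all 19 arrays. For Kcnh2, an erg-type channel, the chosen probe gave -0.28 ± 0.16 SE and a second one, detected on every array, 0.08 ± 0.13 SE. For Kcnc1, a channel of fast-spiking interneurons, they gave 0.19 ± 0.16 SE and -0.21 ± 0.23 SE. The differences were 0.60 ± 0.16 SE for Kcna3 (limma adjusted p = 0.0260), 0.52 ± 0.14 SE for Kcnma1 (limma adjusted p = 0.0321) and -0.53 ± 0.12 SE for Kcnk6 (limma adjusted p = 0.0159). Against Polb+/- 6 members passed (10.7%, all genes 11.5%), namely Kcna5, Kcne1l and Kcnk6 lower and Kcnc1, Kcnk10 and Kcnma1 higher in 3xTgAD/Polb+/-. Kcna5 passed the detection filter only through Polb+/- arrays, so its call is not support. Against 3xTgAD 1 passed, Kcna2 (1.79%, all genes 5.91%, 0.45 ± 0.11 SE, limma adjusted p = 0.0361). The interaction called Kcne1l (1.79%, all genes 1.36%, -0.96 ± 0.20 SE, limma adjusted p = 0.0427). The F-test called 5 members (8.93%, all genes 6.99%). Within the 8 "20 month" arrays 0 members passed in 3xTgAD against wild type (all genes 0.0632%) and in 3xTgAD/Polb+/- against wild type (all genes 0.0632%). Kcnj16 alone passed, in Polb+/- against wild type (1.79%, all genes 0.135%, -1.82 ± 0.18 SE, limma adjusted p = 0.0209) and in 3xTgAD/Polb+/- against Polb+/- (1.79%, all genes 0.108%). Its Polb+/- group there is 1 array, replicate 4, assumed to vary like the others. With the spelling as a block, 0 members passed in 3xTgAD/Polb+/- against wild type (all genes 0.307%) and Kcna5 passed against Polb+/- (1.79%, all genes 0.217%, -0.67 ± 0.13 SE, limma adjusted p = 0.0460). The same limit of the detection filter holds for this Kcna5 call.

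Since the striatal marker mean varied between arrays, the members were also fitted against it with genotype in the fit, a test added after the data were seen. Kcnab1, the beta subunit that speeds inactivation, rose by 0.45 ± 0.10 SE per log2 unit of the marker mean (limma adjusted p = 0.0492). It was 1 of 56 members (1.79%), against 0.515% of all genes other than the markers, or 0.497% with a rising slope. With the spelling also in the fit its slope was 0.32 ± 0.08 SE (limma adjusted p = 0.171), and 0 members passed, against 0.506% of all genes. Kcnk13, a leak channel known from microglia, had a slope of 0.23 ± 0.06 SE (limma adjusted p = 0.0983). Kcnab1 lay at 10.37 to 10.81 on the 4 3xTgAD arrays with low markers and at 11.52 and 11.24 on replicates 4 and 6. Replicates 4 and 6 were labelled "20- month", as was replicate 5 alone of the low-marker arrays, at 10.81. Kcnab1 also differed between the spellings with genotype in the fit ("20- month" minus "20 month" 0.55 ± 0.12 SE, limma adjusted p = 0.00308). With the marker mean in the fit, the Kcna5 difference between Polb+/- and wild type was 0.53 ± 0.14 SE (limma adjusted p = 1).

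**Figure D5:**
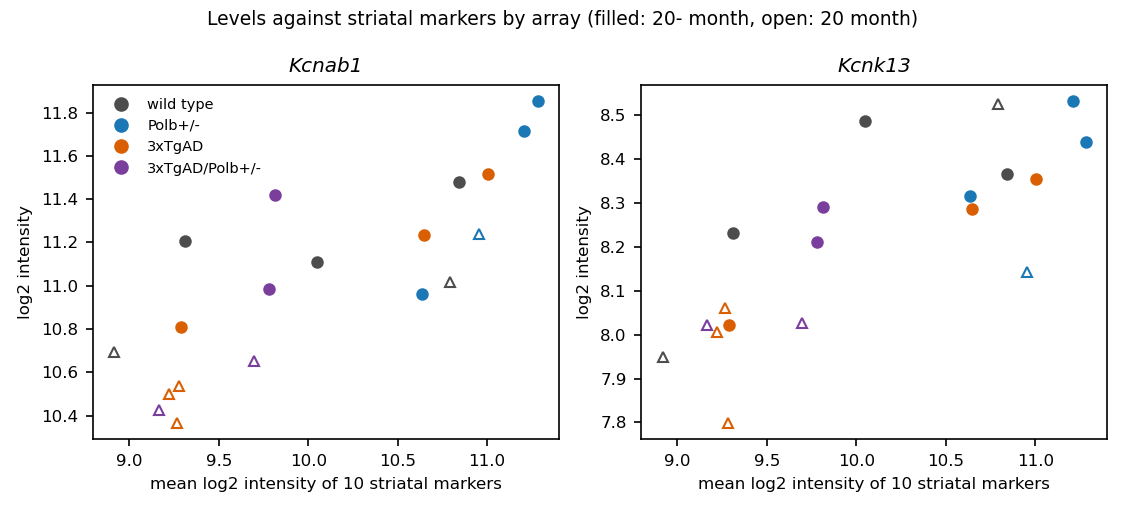
Log2 intensity (y axis) of Kcnab1 and Kcnk13 against the mean log2 intensity of 10 striatal markers (x axis) on each array, coloured by genotype, filled for the label "20- month" and open for "20 month". The arrays with a marker mean of 10.63 or more lie at 10.96 or higher for Kcnab1, and 4 arrays with a lower marker mean (9.31 to 10.05) lie as high, at 10.99 to 11.42.

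Genes that work beside these channels were read from lists written with earlier results known. Of 23 tested partner and regulator genes (29 listed, 24 on the array), 0 passed in any of the 6 comparisons, and of 24 tested sodium, calcium and HCN channel genes (46 listed, 31 on the array) 0 passed. At an unadjusted p under 0.05 the partners numbered 1, 1, 1, 0, 2 and 0 in the order used above, and the other channels 0, 0, 2, 6, 3 and 2. As shares these are 4.35%, 4.35%, 4.35%, 0%, 8.7% and 0% of the partners and 0%, 0%, 8.33%, 25%, 12.5% and 8.33% of the other channels. Over all genes they were 5.65%, 3.36%, 13.2%, 8.82%, 12.1% and 3.22%. Vapb, an endoplasmic reticulum protein that gathers Kv2 channels at the membrane, was below wild type on every 3xTgAD/Polb+/- array (-0.40 ± 0.14 SE, limma adjusted p = 0.261). Dlg1, a scaffold that clusters Kv1 channels, had a 3xTgAD/Polb+/- minus Polb+/- difference of -0.53 ± 0.19 SE (limma adjusted p = 0.261). Scn4b, a sodium channel beta subunit enriched in striatum, had the largest difference of that list, -1.19 ± 0.31 SE for 3xTgAD/Polb+/- minus Polb+/- (limma adjusted p = 0.120), and the striatal marker mean was 10.63 to 11.28 and 9.17 to 9.81 on those arrays.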

How the data were processed

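RNA of prefrontal cortex was measured on 19 Illumina bead arrays of 25697 probes. The deposited table holds, per the file headers, an intensity and a detection p-value per probe and array, read with GenomeStudio 1.9.0 per the submitters' processing notes. The lowest intensity was 30.4. The deposited value table holds z scores, which matched scores recomputed from the logarithm of the authors' intensities and served as an alternative. Intensities were background-corrected, quantile-normalized and log2-transformed with neqc (limma 3.58.1, R 4.3.3, offset 16), using the deposited detection p-values. Probes detected at p under 0.05 on at least 4 arrays were kept (14942). The probe with the highest mean stood for a gene (11072 genes). Each probe has at most 1 gene symbol, and 1719 have none. One limma fit had a mean per genotype, 15 residual degrees of freedom and 4.42 prior ones. Benjamini-Hochberg adjustment covered all genes. Scripts were tested on simulated data.

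The members and lists were chosen with earlier results of these data known. Members named are those called, the 8 with the smallest p in each comparison, the brightest and the smallest F-test p of each subfamily, those with opposed probes and those whose groups do not overlap. From the lists of other genes, up to 3 per comparison are named. One partner gene entered in error was taken out. The fit on the striatal marker mean and the filter on the median detection p were added after the data were seen. The number of arrays limits the precision.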

Additional observations from a re-analysis of the deposited data

Results flagged for a closer look

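The 56 tested members, Polb and the means of the members and of the striatal markers were checked in each genotype. In 13 of these 236 groups 1 array stood apart from the others of its genotype, and chance alone gives about 1 in 20. On Polb+/- replicate 4, the 1 array of its group labelled "20 month", Kcnab3 was at 7.75 (others 8.88 to 8.97), Kcnd2 at 9.78 (others 9.03 to 9.14), Kcnk10 at 5.13 (others 5.56 to 5.601) and Kcnk2 at 9.05 (others 9.74 to 9.87). Kcna6 was at 6.01 on 3xTgAD/Polb+/- replicate 3, against 7.15 to 7.31. Kcnj12 was at 7.77 on wild type replicate 2, against 6.83 to 7.06, and Kcnk1 at 11.36 on wild type replicate 5, against 11.50 to 11.56. Kcna3 was at 6.08 on wild type replicate 5, against 5.67 to 5.75 on the others. Kcna5 was at 5.01 on 3xTgAD/Polb+/- replicate 3, against 4.73 to 4.77. Kcnip4, a partner of A-type channels, was at 8.88 on wild type replicate 1, against 8.42 to 8.51. Kcnj16 was at 6.74 on wild type replicate 3, against 7.28 to 7.44. Kcnn1 was at 8.36 on 3xTgAD/Polb+/- replicate 4, against 7.68 to 7.75. Kcnu1 was at 7.68 on 3xTgAD replicate 1, against 7.25 to 7.38.

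Among genes below the detection filter, 4 were detected on some array but on no wild type array. Kcnd1 was detected on 1 3xTgAD/Polb+/- array, Kcne2 on 1 Polb+/- array and Kcnmb1 on 1 3xTgAD array. Kcnq1 was detected on 2 arrays, 1 Polb+/- and 1 3xTgAD/Polb+/-. Differences between genotypes in detection were not tested.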

How the results depend on the processing

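The F-test count of 1 (Kcna5) became 0 without background correction, with the z scores, with no filter, with detection p under 0.01 on at least 4 arrays, with detection on all 19 arrays, with the median detection filter chosen after seeing the data, with the replicate block, with the same-code arrays averaged and with the striatal marker mean in the fit; the stricter filters left Kcna5 untested, and otherwise the cause was not tested. The adjusted p of Kcna5 was 0.066, 0.122, 0.0582, 0.108, 0.067 and 0.378 without background correction, with z scores, no filter, the replicate block, the averaged arrays and the striatal mean, and 0.214 within "20 month". With array weights the counts were 1 in Polb+/- against wild type, 5, 1 and 7 in 3xTgAD/Polb+/- against wild type, 3xTgAD and Polb+/-, and 6 in the F-test (all genes 0.0723%, 11.8%, 5.25%, 11.1% and 11.8%). Within "20- month" the counts were 8, 1, 6, 1 for the interaction and 5 for the F-test, and within "20 month" 1 in each of 2 comparisons. Without both low-Polb 3xTgAD arrays 3xTgAD/Polb+/- against Polb+/- called 1 (all genes 0.244%) and the F-test 2 (all genes 0.695%). With array weights, within "20- month" and without both low-Polb arrays, Kcna5 was among the calls against Polb+/- and in the F-test. It passed the detection filter only through the Polb+/- arrays. Median differences moved within "20 month" to 0.060 (3xTgAD against wild type), -0.13 (Polb+/- against wild type) and -0.078 (3xTgAD/Polb+/- against 3xTgAD). Without both low-Polb arrays they were 0.057 (3xTgAD against wild type) and -0.0023 (interaction), and with the striatal mean 0.022 (interaction). Directions reversed for Kcnip2 (0.083, 3xTgAD/Polb+/- against 3xTgAD) and Kcnj16 (0.042, Polb+/- against wild type) within "20- month", for Kcnu1 (0.046) and Kcnab2 (-0.033, both 3xTgAD/Polb+/- against wild type) within "20 month", and for Kcnab1 (0.057, 3xTgAD/Polb+/- against Polb+/-) with the striatal mean; the cause was not tested. Leaving out 1 array gave counts of 0 to 2 in 3xTgAD/Polb+/- against wild type (all genes 0.00903% to 2.93%), 0 to 1 against Polb+/- (0% to 2.36%) and 0 to 1 in the F-test (0% to 0.542%), with medians of -0.043 to 0.0096, -0.090 to -0.0098, -0.026 to 0.035, -0.020 to 0.051, 0.041 to 0.11 and 0.037 to 0.13 in the order of the comparisons. The replicate numbers do not pair the arrays (correlations of deviations -0.345 to 0.441, 7 of 25 over 0.1). With the replicate block 0 members passed in each comparison, and the Polb+/- median was -0.049. Low signal limits the 24 members not tested.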
